A study of Rattus norvegicus with 12 samples.

Results

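Genes that hold cells out of division, namely inhibitors of the cyclin-dependent kinases (CDKs) and growth arrest genes controlled by p53, were followed in astrocytes treated with epidermal growth factor (EGF), a mitogen that acts through its own receptor kinase. The group was defined by gene symbol: Cdkn1a, Cdkn1c, Cdkn2b, Cdkn2c, Mdm2, Ccng1, Gadd45a, Gadd45b, Gadd45g and Btg2, 10 genes in all. Of these, 9 were measured by 13 of the 31099 probe sets of the array, and Btg2 was not analysed here. Each gene was read from its probe set with the highest mean signal over all arrays, and all 9 of these leading probe sets were bright enough to be tested. Of the other 4 probe sets, 3 were tested and 1, for Cdkn2c, was too dim.

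The cells were astrocytes in primary culture, taken from the optic nerve head of the rat, the site at which retinal axons gather into the nerve. The first experiment treated cultures with EGF for 4 h and kept sister cultures as controls. The second treated cultures for 12 h and had its own sister controls. With 3 arrays for each of the 4 groups, there were 12 arrays. The EGF dose, the strain and the age of the rats are not given in the sources used here, nor is it stated whether the 3 arrays of a group came from separate cultures. If they did not, p-values reflect spread that may be technical alone. In RNA of whole cultures, fewer cells of a type and less RNA per cell cannot be told apart.

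Several arrays stood apart. The mean signal of the hybridisation control probe sets was 8364 on replicate 3 of EGF at 4 h and 9557 on replicate 3 of control at 4 h, against 44.7 to 116 on the other 10 arrays. The ratio of the 3' to the 5' actin probe set was 1.24 on replicate 3 of EGF at 12 h and 11.1 to 21.7 on the other 5 arrays of that time, against 1.20 to 1.61 at 4 h. The 12 h arrays thus differ from the 4 h arrays in more than time, and a difference in level between the times cannot be told apart from one between these sets of arrays. Replicate 3 of EGF at 12 h had a ratio in the 4 h range. Fits of the 12 h effect without it rest on arrays with the high ratio alone, and which arrays read a gene better was not tested. Of the astrocyte markers, 5 of 9 were bright enough to be tested and the defining markers Gfap and Aqp4 were among the dim ones, while vimentin (Vim) averaged 62763 to 91773 in the 4 groups. The fibroblast and meningeal collagen Col1a1 averaged 33587 to 72051. The summed signal of the 6 fibroblast and meningeal markers was 210768.5 to 224980.2 with EGF and 243649.8 to 274773.1 in control at 4 h, and 112999.7 to 182688.7 with EGF and 204702.7 to 245525.1 in control at 12 h. That of the 9 astrocyte markers was 68264.2 to 74158.7 with EGF and 68271.5 to 74847.8 in control at 4 h, and 78008.5 to 120188.3 with EGF and 77658.1 to 86332.5 in control at 12 h. Vim makes up most of that sum. Of the 5 tested astrocyte markers, 0 were called at 4 h and 2 were called lower at 12 h, Glul and Aldoc. The log2 fold change of Glul was -1.28 ± 0.15 (limma adjusted p = 2.83e-05) and that of Aldoc -5.64 ± 0.64. Aldoc averaged 31 with EGF and 2655.4 in control at 12 h, and 85.6 with EGF and 160.5 in control at 4 h. It was bright enough to be tested only through its 12 h control arrays, which are also a side of that comparison. Its EGF signals at 12 h, 19.9 to 52.8, were close to the 24.4 added before taking logs. No result is drawn from the call of Aldoc. The 8 oligodendrocyte lineage markers summed to 3746.7 to 4551 with EGF and 6276.7 to 6495.1 in control at 4 h, and to 3209 to 3480.4 with EGF and 6056.5 to 6864.4 in control at 12 h. The 4 endothelial markers summed to 1151.7 to 1544.7 with EGF and 2599.3 to 2992.5 in control at 4 h, and to 1030.4 to 1586.7 with EGF and 2432.3 to 2981.6 in control at 12 h. The 7 microglia and macrophage markers summed to 737.1 to 913.4 with EGF and 988.7 to 1195.5 in control at 4 h, and to 1469.6 to 2105.6 with EGF and 698.6 to 1040.4 in control at 12 h, where Cd68 averaged 924 ± 114.4 with EGF and 62.1 ± 62.51 in control (SD, n = 3 each). Of the 3 microglial markers tested at 12 h, 1 rose and 2 were not called, so the rise of that sum is not one of the markers as a set. The 2 Schwann cell markers summed to 18855.4 to 19982.5 with EGF and 16252.7 to 18166.3 in control at 4 h, and to 6318.3 to 8136.6 with EGF and 8779.6 to 10887.7 in control at 12 h. All 6 neuronal markers were dim, and at 12 h they summed to 863.3 to 1588.1 with EGF and 282.6 to 722.1 in control. The sums of the oligodendrocyte, endothelial, fibroblast, microglial and Schwann cell markers thus did not overlap between EGF and control at either time. Those of the neuronal markers did not overlap at 12 h, although every one of these markers was dim. A sum follows its brightest probe sets. At 4 h, 0 of 3 tested microglial, 0 of 2 Schwann cell and 1 of 6 fibroblast markers were called. At 12 h, 5 of the 6 fibroblast and both Schwann cell markers fell. Of the 4 tested oligodendrocyte markers, 2 fell at 4 h, 1 rose and 2 fell at 12 h, and the 1 tested endothelial marker fell at both times. Of all genes tested, 32.4% were called at 4 h and 40.8% at 12 h. How many probe sets of the whole array did not overlap was not counted, so no result is drawn from the lack of overlap of these sums. The part of these markers in the results that follow was not tested.

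Progress from G1 into S phase depends on CDKs bound to cyclins, which phosphorylate the retinoblastoma protein and its relatives. The INK4 inhibitors, among them the products of Cdkn2b and Cdkn2c, bind Cdk4 and Cdk6, whereas the Cip/Kip inhibitors, among them the products of Cdkn1a and Cdkn1c, bind cyclin-CDK complexes. The transcription factor p53 raises Cdkn1a, Mdm2, Ccng1, Gadd45a and Btg2 after DNA damage, and the Mdm2 protein in turn marks p53 for destruction. The Gadd45 proteins are small stress-induced proteins that bind Pcna and Cdk1 and activate the stress kinase Map3k4.

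The promoters of 4 members are shown because the Gadd45 genes had the 3 largest falls of the group at 4 h, and Cdkn1a, the classical p53 target, stands beside them for contrast. Each is 300 bases long, from 250 bases before to 50 bases after the start of the gene, 5′ to 3′ on the gene's strand, as RefSeq gives it on the GRCr8 build. The Cdkn1a promoter lies at chr20:7150682-7150981 on the plus strand and that of Gadd45a at chr4:97486750-97487049 on the minus strand. The Gadd45b promoter lies at chr7:9430669-9430968 and that of Gadd45g at chr17:13530302-13530601, both on the minus strand. Capitals mark a match to the p53 decamer in Cdkn1a and Gadd45a, and the E-box CACGTG in Gadd45b and Gadd45g.
Cdkn1a: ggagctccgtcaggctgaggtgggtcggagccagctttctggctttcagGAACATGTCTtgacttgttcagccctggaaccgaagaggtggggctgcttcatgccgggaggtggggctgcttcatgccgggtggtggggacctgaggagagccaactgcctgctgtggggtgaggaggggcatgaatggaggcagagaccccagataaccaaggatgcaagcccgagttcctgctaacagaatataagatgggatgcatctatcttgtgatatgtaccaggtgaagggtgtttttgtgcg
Gadd45a: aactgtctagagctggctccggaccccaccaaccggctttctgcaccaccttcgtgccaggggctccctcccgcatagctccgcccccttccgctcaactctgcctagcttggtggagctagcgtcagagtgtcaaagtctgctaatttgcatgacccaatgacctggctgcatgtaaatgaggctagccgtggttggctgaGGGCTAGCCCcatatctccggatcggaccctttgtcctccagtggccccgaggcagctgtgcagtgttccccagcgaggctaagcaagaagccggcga
Gadd45b: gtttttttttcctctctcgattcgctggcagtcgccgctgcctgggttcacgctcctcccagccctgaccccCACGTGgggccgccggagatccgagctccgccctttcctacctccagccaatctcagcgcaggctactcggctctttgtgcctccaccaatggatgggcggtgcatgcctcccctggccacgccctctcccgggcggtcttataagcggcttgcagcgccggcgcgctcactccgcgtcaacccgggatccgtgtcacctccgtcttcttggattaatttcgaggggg
Gadd45g: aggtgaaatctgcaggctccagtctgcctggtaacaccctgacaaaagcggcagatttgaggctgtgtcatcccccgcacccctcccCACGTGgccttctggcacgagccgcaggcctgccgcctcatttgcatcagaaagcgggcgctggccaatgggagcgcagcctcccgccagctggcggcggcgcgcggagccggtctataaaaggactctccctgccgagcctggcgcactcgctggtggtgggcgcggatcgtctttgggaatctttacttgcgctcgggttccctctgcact

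Of the 9 measured members, 8 had a promoter sequence, and Cdkn1c had none. Motifs were searched on both strands. The p53 decamer matched in 4 of the 8 promoters, those of Cdkn1a (GAACATGTCT), Cdkn2c (GAGCTAGCTC), Ccng1 (GGGCAAGCCT) and Gadd45a (GGGCTAGCCC), and in 7.98% of 33469 rat promoters of the same length. The E-box CACGTG was present in 2 of 8, Gadd45b and Gadd45g, against 6.42% of all promoters. The cAMP response element TGACGTCA stood in Cdkn2b alone of the 8 (1.83% of all), the FoxO site GTAAACA in Mdm2 alone (3.78% of all) and the TATA box TATAAA in Gadd45g alone (14.2% of all). The AP-1 site TGANTCA was in 0 of 8, against 7.33% of all. These matches describe letters in a window of 300 bases and do not show that a factor binds there.

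Values below are array signals on the linear scale as deposited, in replicate order, and log2 fold changes of EGF over control, taken after adding 24.4 to each signal and given ± the standard error (SE). Levels of different probe sets are not compared.

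At 4 h, 4 of the 9 genes fell with EGF (Cdkn2c, Gadd45a, Gadd45b and Gadd45g), 0 rose and 5 did not pass the test (6 fell and 0 rose at an unadjusted p under 0.05), which was limma with Benjamini-Hochberg adjustment over 18625 probe sets and a threshold of 0.05. That is 44.4% of the members, beside 32.4% of the 10261 genes tested (27.8% of all probe sets), and the falls alone compare with 19.6% of genes. At 12 h, 4 fell (Cdkn1c, Cdkn2c, Gadd45b and Gadd45g), 1 rose (Cdkn2b) and 4 did not pass, which is 55.6% of the members beside 40.8% of genes (36.1% of all probe sets). Falls at 12 h were called for 24.2% of genes and rises for 16.5%. The number of members called was thus not far from the background of a culture in which a large part of the array moved. The median log2 fold change of the 9 members was -0.65 at 4 h and 0.01 at 12 h, beside -0.17 and -0.09 over all genes. The 3 members that fell at both times were Cdkn2c, Gadd45b and Gadd45g. Of all 18625 probe sets tested, 9.81% did so. The share of genes by their leading probe set was not counted, and at each time calls were more frequent among genes than among probe sets.

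**Figure D1:**
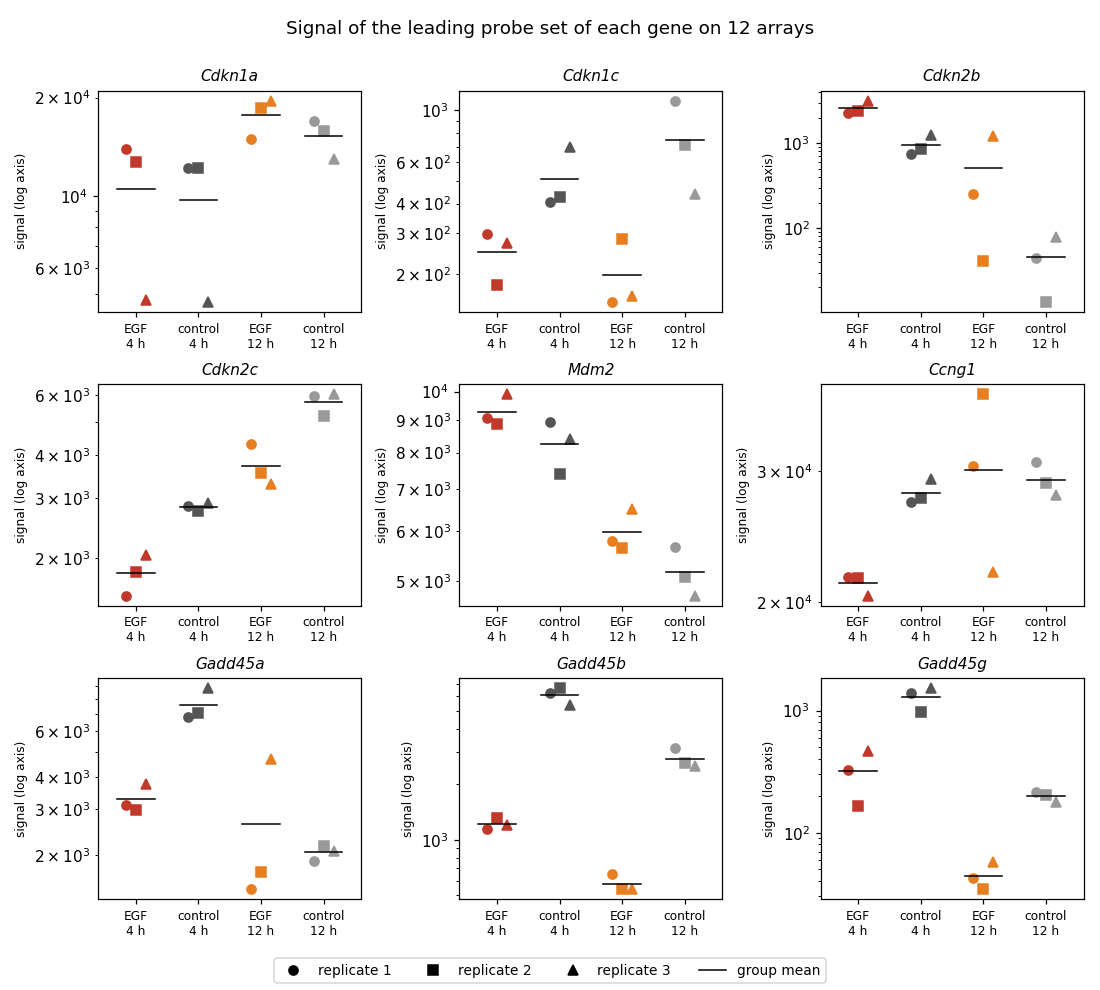
Signal of the leading probe set of each of the 9 genes on every array, with a log axis; each point is 1 array (circle, square and triangle for replicates 1, 2 and 3), with EGF left of control at 4 h and at 12 h, and the bar is the group mean. Gadd45b and Gadd45g are lower with EGF at both times with no overlap between the groups, and EGF replicate 3 at 12 h lies far above the other EGF arrays of that time for Cdkn2b and Gadd45a.

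Gadd45b, whose product restrains the cell cycle and also acts in stress kinase signalling, fell at both times with the smallest adjusted p of the members. Its signal was 1144, 1320 and 1197 with EGF at 4 h, against 6303, 6670 and 5379 in control. The 12 h signals were 649, 538 and 541 with EGF, against 3132, 2624 and 2524 in control. All 6 EGF arrays lay below all 6 control arrays, including across times. The log2 fold change was -2.30 ± 0.15 (SE) at 4 h, a mean signal 0.20 times that of control (limma adjusted p = 1.76e-07), and -2.21 ± 0.15 at 12 h, 0.209 times control (adjusted p = 1.38e-07). The effect at 12 h minus that at 4 h was 0.09 with a 95% interval of -0.37 to 0.54.

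Gadd45g, the family member best known for its part in development and differentiation, fell at both times. It had 326, 165 and 466 with EGF at 4 h, against 1406, 976 and 1532 in control. At the later time its signals were 42.2, 34.3 and 57.0 with EGF, against 217, 203 and 178 in control. The groups did not overlap at either time, and the EGF arrays at 12 h were close to the offset of 24.4 added before taking logs, so that the fold change there understates the ratio of the signals. Both 12 h group means were below the filter of 215 on the mean over 12 arrays. Gadd45g passed that filter only through its control arrays at 4 h, which are also a side of the 4 h comparison. Its calls at both times held in the fit with no filter on dim probe sets. The log2 fold change was -2.03 ± 0.37 at 4 h (adjusted p = 0.00105), with a mean of 319 ± 150.3 with EGF and 1304 ± 291.4 in control (SD, n = 3 each; limma). At 12 h it was -1.71 ± 0.37 (adjusted p = 0.00251), with means of 44.5 ± 11.52 and 199 ± 19.44 for EGF and control (SD, n = 3 each; limma).

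Gadd45a, the family member under p53 control, fell at 4 h. It had 3114, 2987 and 3747 with EGF at 4 h, against 6817, 7071 and 8810 in control, and every EGF array was below every control array. On the log2 scale the fold change was -1.20 ± 0.32, a mean of 0.434 times control (adjusted p = 0.0122). Without the replicate 3 pair at 4 h it was -1.18 with an adjusted p of 0.0687. At 12 h it had 1469, 1720 and 4672 with EGF, against 1890, 2160 and 2074 in control. EGF replicates 1 and 2 lay below every control array and replicate 3, the array with the low actin ratio, lay far above them, and the log2 fold change was 0.16 ± 0.32 (adjusted p = 0.725). Without that array it was -0.35 ± 0.15 (adjusted p = 0.0765), and a fit blocked on the array set, which takes the 12 h effect from the other 5 arrays, gave -0.35 ± 0.11 (adjusted p = 0.0163). Both values rest on the 12 h arrays with the high actin ratio.

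Whether the fall of Gadd45a differed between 12 h and 4 h was tested directly. The difference between the effects was 1.36 ± 0.45 on the log2 scale (adjusted p = 0.0684), 0.84 ± 0.20 without EGF replicate 3 at 12 h (adjusted p = 0.0103) and 1.36 with the replicate number as a block, called the replicate block below (adjusted p = 0.0498). It also passed without EGF replicate 1 at 12 h (1.67, adjusted p = 0.0175) and with quantile normalization (1.47, adjusted p = 0.0427), and it was positive in each of these fits. In 16 of 22 alternatives, median centring among them, it did not pass, as in the main fit, with adjusted p up to 0.151. By the leading probe sets, 0 of the 9 members passed the limma test of the difference, beside 14% of genes, and Gadd45a alone had an unadjusted p under 0.05.

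Among the INK4 inhibitors, Cdkn2c fell moderately at both times. It had 1546, 1809 and 2036 with EGF at 4 h, against 2844, 2737 and 2898 in control. The 12 h signals were 4305, 3553 and 3303 with EGF, against 5960, 5233 and 6045 in control. The control arrays of each time lay above all EGF arrays of that time. The mean with EGF was 0.636 times control at 4 h (log2 fold change -0.65 ± 0.14, adjusted p = 0.0040) and 0.647 times control at 12 h (-0.63 ± 0.14, adjusted p = 0.00376). Its other probe set was too dim to test, at 37.2 to 148 with EGF and 163 to 286 in control at 4 h and at 48.9 to 147 with EGF and 15.8 to 155 in control at 12 h. Averaged with it, Cdkn2c at 12 h no longer passed (-0.29 ± 0.31, adjusted p = 0.491).

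Cdkn2b, the INK4 inhibitor that transforming growth factor beta induces, moved the other way. It had 2269, 2376 and 3164 with EGF at 4 h, against 752, 848 and 1236 in control. All EGF arrays were above all control arrays at 4 h, and the mean was 2.75 times control. The log2 fold change of 1.45 ± 0.75 did not pass with the spread shared over the 4 groups (adjusted p = 0.173). It passed with the replicate block (adjusted p = 0.0387), which pairs arrays by number at both times, and with the 6 arrays of that time alone (adjusted p = 0.000483).

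At 12 h, Cdkn2b had 249, 41.3 and 1221 with EGF, against 44.8, 13.5 and 78.6 in control. EGF replicate 3 was the highest array by far, EGF replicate 2 lay below 2 of the 3 control arrays, and the groups overlapped. Control replicates 1 and 2 and EGF replicate 2 were close to the offset added before taking logs, which limits the fold change. The control mean of 45.6 was below the filter on mean signal, which Cdkn2b passed on its mean over all arrays. The fitted log2 fold change was 2.12 ± 0.75 (adjusted p = 0.0407). Without EGF replicate 3 it was 1.05 ± 0.52 (adjusted p = 0.128). The call was lost in 16 of 23 alternatives, among them the fit with no filter on dim probe sets. The direction was kept in all 23.

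The Cip/Kip inhibitor Cdkn1c, the product of an imprinted gene, fell at 12 h. It had 297, 180 and 272 with EGF at 4 h, against 406, 428 and 700 in control. After 12 h the signals were 152, 284 and 162 with EGF, against 1100, 711 and 438 in control. The groups did not overlap at either time. The log2 fold change was -0.95 ± 0.37 at 4 h (adjusted p = 0.0724), which passed when blocked on the array set (adjusted p = 0.0401), and -1.75 ± 0.37 at 12 h, where the mean was 0.266 times control (adjusted p = 0.00236). The difference between the times was -0.80 ± 0.52 (adjusted p = 0.362).

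Cdkn1a, which encodes the CDK inhibitor most closely tied to p53, was not called different at either time. Its leading probe set had 13907, 12706 and 4780 with EGF at 4 h, against 12155, 12160 and 4728 in control. The 12 h arrays read 14931, 18580 and 19580 with EGF, against 16915, 15832 and 12962 in control. Replicate 3 of both groups at 4 h was far below its group, and EGF and control overlapped at both times. The fitted log2 fold change was 0.09 at 4 h with a 95% interval of -0.75 to 0.93, and 0.22 at 12 h with an interval of -0.62 to 1.05. Without the replicate 3 pair, the 4 h value was 0.13 ± 0.17.

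The other Cdkn1a probe set gave a different picture at 12 h. It had 3331, 3059 and 4479 with EGF at 4 h, against 4125, 2976 and 3230 in control. The 12 h arrays read 773, 1078 and 5402 with EGF, against 703, 834 and 429 in control. EGF replicate 3 was again the high array, and EGF replicate 1 lay within the control range. The fitted log2 fold change was 1.36 ± 0.52 (adjusted p = 0.0566).

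**Figure D2:**
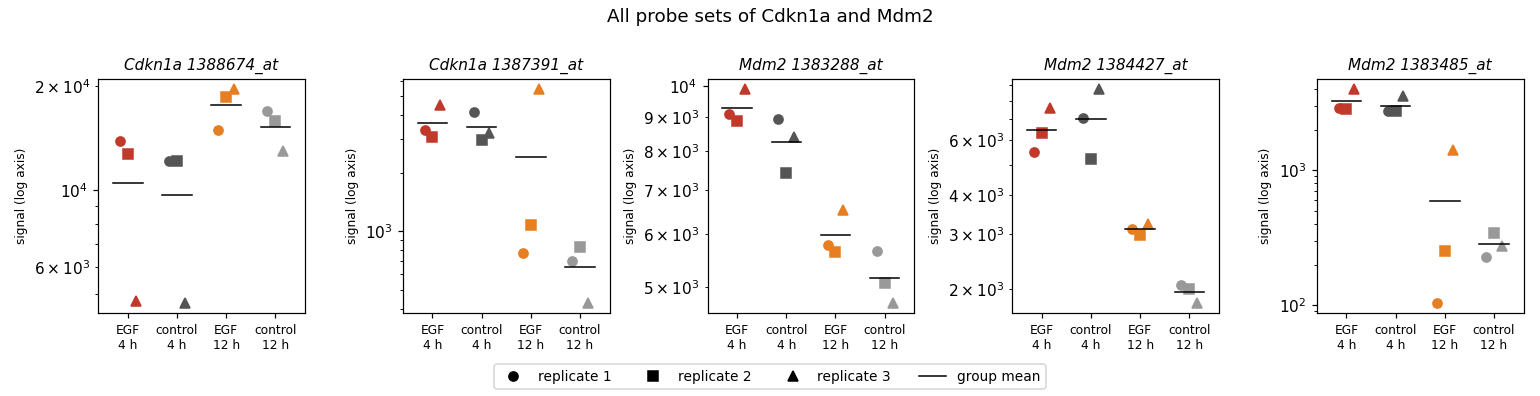
Signal on a log axis of the 2 probe sets of Cdkn1a and the 3 probe sets of Mdm2 on every array, with EGF left of control at each time. The second Cdkn1a probe set and the third Mdm2 probe set are each highest at 12 h on EGF replicate 3, whereas the second Mdm2 probe set separates EGF from control at 12 h without overlap.

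Mdm2, the ubiquitin ligase for p53 and itself a p53 target, moved little by its leading probe set. It had 9078, 8868 and 9897 with EGF at 4 h, against 8949, 7410 and 8404 in control. After 12 h the signals were 5780, 5652 and 6516 with EGF, against 5660, 5080 and 4740 in control. At each time EGF replicate 2 alone of the EGF arrays lay below a control array, by a small margin. The log2 fold changes were 0.17 (95% interval -0.09 to 0.43) at 4 h and 0.21 (-0.05 to 0.48) at 12 h, and neither passed.

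A second Mdm2 probe set passed at 12 h. It had 3130, 2974 and 3228 with EGF at 12 h, against 2060, 2003 and 1812 in control, with no overlap. Its log2 fold change was 0.66 ± 0.18 at 12 h (adjusted p = 0.0101) and -0.09 ± 0.18 at 4 h (adjusted p = 0.747). The third Mdm2 probe set had 104, 254 and 1412 with EGF at 12 h, against 229, 342 and 275 in control, so that EGF arrays stood on both sides of the controls. Its log2 fold change was 0.30 ± 0.60 (adjusted p = 0.729).

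Ccng1, which encodes cyclin G1, a p53 target that recruits a phosphatase to Mdm2, was lower with EGF on every array at 4 h. It had 21614, 21533 and 20380 with EGF at 4 h, against 27195, 27611 and 29231 in control. The groups at 4 h did not overlap, and the mean with EGF was 0.756 times control. The log2 fold change of -0.40 ± 0.16 did not pass with the spread shared over the 4 groups (adjusted p = 0.0789), but passed without EGF replicate 3 at 12 h (adjusted p = 0.00699) and with the arrays of that time alone (adjusted p = 0.00837). At 12 h it had 30434, 38007 and 21909 with EGF, against 30779, 28859 and 27869 in control. The EGF arrays of 12 h spread on both sides of the controls, and the log2 fold change was 0.01 (95% interval -0.34 to 0.36). The difference between the times, 0.41 ± 0.23 (adjusted p = 0.270), was 0.63 ± 0.16 without EGF replicate 3 (adjusted p = 0.0137).

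**Figure D3:**
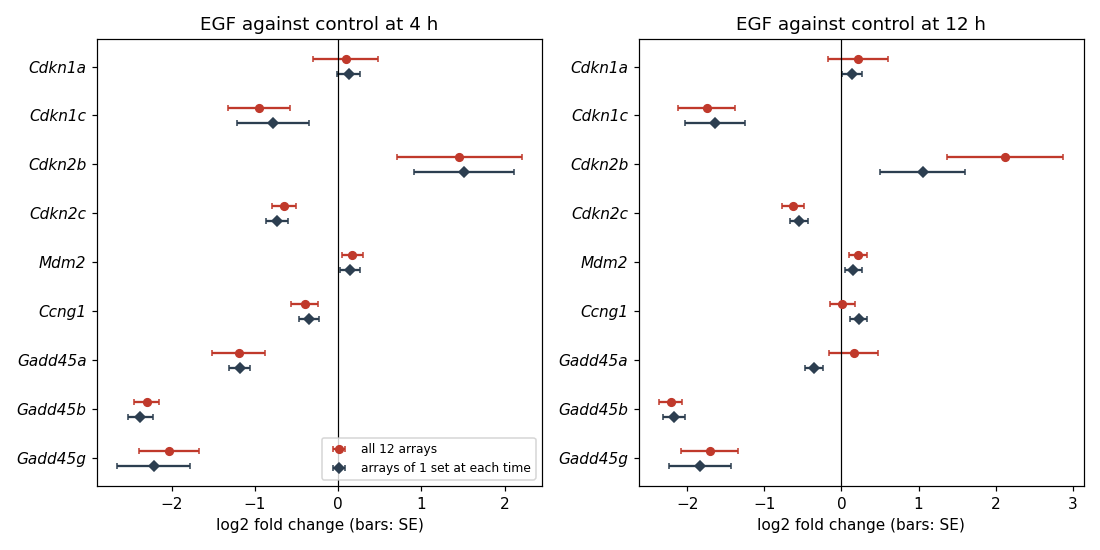
Log2 fold change of EGF over control for the leading probe set of each of the 9 genes at 4 h and at 12 h, with the SE from limma as bars. Circles are the fit of all 12 arrays and diamonds the fit of the arrays of 1 set at each time. Gadd45b and Gadd45g lie at -1.71 or below at both times in the fit of all arrays, and Gadd45a at 12 h lies at 0.16 with all arrays and at -0.35 with 1 set.

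Over the 12 arrays, the log2 signals of Gadd45b and Gadd45g correlated at 0.87, those of Gadd45a and Gadd45g at 0.80 and those of Gadd45a and Gadd45b at 0.58. Cdkn2b and Mdm2 correlated at 0.90, Cdkn2c and Mdm2 at -0.91, and Cdkn2b and Cdkn2c at -0.88. These values describe 12 arrays that share the 2 times, the sets of arrays and the treatment. The genes most like Gadd45b over these arrays were Wwc3 (r = 0.987), Nedd9 (0.984) and Slc5a6 (0.977). Nedd9, which encodes a docking protein of focal adhesions, averaged 2130 ± 103.6 with EGF and 6518 ± 234.2 in control at 4 h, and 1436 ± 425.9 with EGF and 3831 ± 314.5 in control at 12 h (SD, n = 3 each). The genes most like Cdkn1a were Foxp4 (0.953), Raver1 (0.952) and Hnrnpl (0.951). Hnrnpl, which encodes an RNA-binding protein, was also low on replicate 3 of both groups at 4 h, with 18044, 17279 and 9042 with EGF, against 17872, 18921 and 10763 in control.

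Genes that act beside the members were read from 5 lists. At 4 h the lists, in the order below, had 50%, 28.6%, 33.3%, 66.7% and 42.9% of tested genes called, beside 32.4% of all genes. At 12 h the shares were 66.7%, 28.6%, 33.3%, 38.9% and 42.9%, beside 40.8%. Several of these shares were thus near that of all genes. Among 12 other CDK inhibitors, pocket proteins and relatives of Btg2 and Ccng1, 1 rose and 5 fell at 4 h, and 3 rose and 5 fell at 12 h. The list's median log2 fold change was -0.37 at 4 h and -0.25 at 12 h, beside -0.17 and -0.09 over all genes. Cyclin G2 (Ccng2), the relative of Ccng1 that is raised in quiescent cells, fell most at 4 h, with 538 ± 29.42 with EGF and 5167 ± 663.7 in control (SD, n = 3 each; log2 fold change -3.20 ± 0.14, limma adjusted p = 4.5e-09). Its fall at 12 h was -1.45 ± 0.14 (adjusted p = 3.35e-06). Cdkn1b, the Cip/Kip inhibitor that holds cells in quiescence, averaged 8163 ± 944.8 with EGF and 21279 ± 2328 in control at 4 h (log2 fold change -1.38 ± 0.13) and fell by 0.72 on the log2 scale at 12 h. The pocket protein gene Rbl2 fell at both times (-1.23 ± 0.15 and -0.89 ± 0.15), the antiproliferative gene Tob1 fell at 4 h (-0.89 ± 0.16), and Rb1 fell at 12 h (-1.31 ± 0.23). The genes that rose are outside the naming rule and were named after their values were seen. They were Btg1 at both times (0.66 ± 0.14 and 0.71 ± 0.14), and Btg3 (0.82 ± 0.16) and Cdkn2a (1.22 ± 0.29) at 12 h.

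Among 14 tested G1 cyclins, kinases and their partners, 1 rose and 3 fell at each time, with medians of -0.13 and 0.04. The rise at 4 h was that of Cdc25a, a phosphatase that activates CDKs (0.74 ± 0.21, adjusted p = 0.0173), with falls of Ccnd3 (-0.85 ± 0.23), E2f1 (-0.98 ± 0.26) and Ccne2 (-0.83 ± 0.29, adjusted p = 0.0458). The Ccne2 groups overlapped at 4 h and its call was lost in 13 of 22 alternatives, among them the arrays of that time alone (adjusted p = 0.0847), while those of Cdc25a, Ccnd3 and E2f1 were lost in 4, 3 and 2. At 12 h cyclin D1 (Ccnd1), the partner of Cdk4 and Cdk6, rose to 21095 ± 1859 with EGF, against 9338 ± 1486 in control (SD, n = 3 each; log2 fold change 1.18 ± 0.19, limma adjusted p = 0.000342). Ccnd3 (-0.92 ± 0.23) and the mitotic genes Cdk1 (-1.13 ± 0.28) and Ccnb1 (-0.97 ± 0.26) fell at 12 h.

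Among 12 regulators of p53, 1 rose and 3 fell at 4 h and 4 fell at 12 h, with medians of -0.42 and -0.24. Mdm4, the partner of Mdm2 that holds p53 inactive, fell at 4 h (-0.91 ± 0.18), as did Tp53bp1 (-0.67 ± 0.17) and the ubiquitin ligase gene Rchy1 (-0.49 ± 0.13), while the p53 kinase gene Tp53rkb rose (0.92 ± 0.30, adjusted p = 0.0368). The Tp53rkb rise did not pass with the replicate block (adjusted p = 0.0746) and was lost in 10 of 22 alternatives, and the 4 h falls of Tp53bp1 and Rchy1 were each lost in 3. At 12 h Tp53bp2 (-1.09 ± 0.20), the phosphatase gene Ppm1d (-0.92 ± 0.18), Rchy1 (-0.64 ± 0.13) and Tp53bp1 (-0.73 ± 0.17) fell. Among 18 tested other p53 targets, 4 rose and 8 fell at 4 h, with a median of -0.48, and 2 rose and 5 fell at 12 h, with a median of -0.34. The death receptor gene Fas (-1.25 ± 0.19) and the stress gene Sesn1 (-1.26 ± 0.21) fell at 4 h, and Plk2 (0.98 ± 0.16) and Sertad1 (0.72 ± 0.11) rose. At 12 h Sesn1 (-2.15 ± 0.21) and the DNA repair gene Xpc (-1.32 ± 0.16) fell, and Phlda3 (1.31 ± 0.21) and Sertad1 (0.92 ± 0.11) rose.

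Among 7 tested partners and stress kinases of the Gadd45 proteins, 1 rose and 2 fell at each time, with medians of -0.14 and 0.14. Map3k4, the kinase that Gadd45 proteins bind and activate, averaged 1052 ± 60.45 with EGF and 2160 ± 142.9 in control at 4 h, and 1979 ± 288.7 with EGF and 4284 ± 464.4 in control at 12 h (SD, n = 3 each). Its log2 fold change was -1.02 ± 0.15 at 4 h (limma adjusted p = 0.000194) and -1.11 ± 0.15 at 12 h (adjusted p = 6.56e-05). The p38 activator Map2k3 rose at 4 h, to 25196 ± 1422 with EGF, against 6728 ± 262.8 in control, and the other p38 activator Map2k6 fell (-1.53 ± 0.45, adjusted p = 0.0226). Without EGF replicate 3 at 4 h the Map2k6 value was -0.999 (adjusted p = 0.0765), and its call was also lost with quantile normalization (adjusted p = 0.0615) and without control replicate 1 or 2 at 4 h (adjusted p = 0.0712 and 0.0948). At 12 h the kinase gene Mapk8 fell (-0.47 ± 0.14) and the p38 gene Mapk14 rose (0.46 ± 0.16, adjusted p = 0.035). The Mapk14 call was lost in 6 of 22 alternatives, including without any 1 of the control arrays of that time (adjusted p = 0.0718 to 0.108) or of EGF replicates 1 and 2 (0.0553 and 0.132), and the Mapk8 call in 4.

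**Figure D4:**
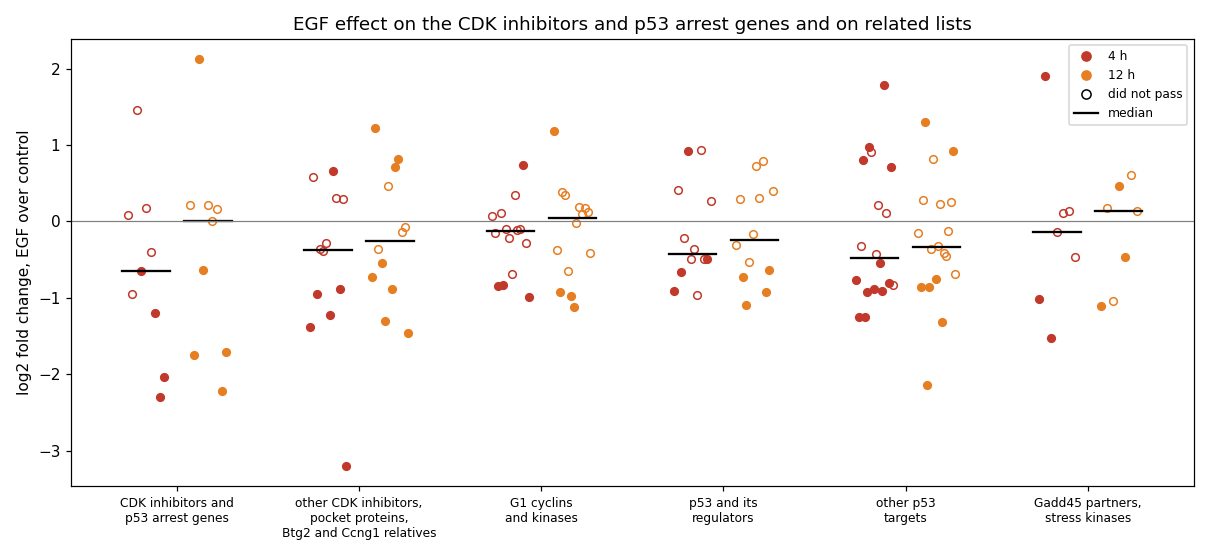
Log2 fold change of EGF over control at 4 h and at 12 h for each tested gene of the CDK inhibitors and p53 arrest genes and of the 5 related lists; each point is the leading probe set of 1 gene, filled where it passed the test and open where it did not, and the bar is the median. Ccng2 is the lowest point at 4 h, at -3.20.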

How the data were processed

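RNA of primary astrocyte cultures was measured on 12 Affymetrix arrays of 1 colour, with group and replicate number taken from the sample titles. The authors deposited 1 linear intensity per probe set and array, computed with MAS5 (version not stated) per the submitters' processing notes. Each array had a 2% trimmed mean of 1500.46 to 1500.56, so no rescaling was added. The median signal of an array was 305.5 to 415.2. Detection calls were not used. Precision is limited by the small number of arrays.

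The 57 control probe sets and the 12417 with a mean signal under the 40th percentile (215) were left out. For the other 18625, limma 3.58.1 in R 4.3.3 fitted group means over all 12 arrays on log2(signal + 24.4), the offset being the 10th percentile, with an intensity trend and 8 residual degrees of freedom. A log2 fold change of a dim probe set is understated by the offset. Two-sided p values were adjusted by the Benjamini-Hochberg method over all 18625, and all adjusted p values are from this limma fit or a named alternative of it. The fit was tested on simulated data. Figures were drawn with matplotlib 3.10.9.

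Names came from the platform annotation, in which 20832 probe sets had 1 symbol, 436 several and 9831 none, and 20764 matched RefSeq genes by identifier. The members, the 5 related lists and the marker lists were chosen with earlier results of these data known. The rule named every member, the up to 4 called genes of a list that had the smallest p values per time, and the 3 genes most correlated with Cdkn1a and with Gadd45b.

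Pairing was checked by the correlation of residuals between an EGF and a control array of equal number. It was 0.121, 0.150 and 0.376 at 4 h and 0.0826, -0.111 and -0.103 at 12 h. At 4 h, arrays of unequal number correlated at up to 0.142, 0.138 and -0.203. Only replicate 3, the pair with high hybridisation controls, stood clear. The main fit pairs no arrays. The replicate block pairs them by number at both times, although the values gave little sign of pairing at 12 h. Arrays were assigned to sets by time, by whether the hybridisation controls averaged over 1000, and by whether the actin 3'/5' ratio passed 5. The fit restricted to arrays of 1 set at each time and the readings of other probe sets of Cdkn1a and Mdm2 were added after seeing the data.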

Additional observations from a re-analysis of the deposited data

Results flagged for a closer look

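The EGF effect of 9 list genes differed between 4 h and 12 h by the limma test of the difference itself. The difference is given as log2 effect at 12 h minus that at 4 h. By list, in the order used above, 16.7%, 7.14%, 8.33%, 22.2% and 14.3% of tested genes passed, beside 14% of all genes. The shares of the lists thus lay on both sides of that of all genes. The rule for named genes covers 7 of the 9 genes, and Sfn and Apaf1 were named after their values were seen. The fall of Ccng2 was smaller at 12 h (1.75 ± 0.20, adjusted p = 0.000122). That of Cdkn1b was too (0.66 ± 0.18, adjusted p = 0.0309), but this call was lost in 11 of 21 alternatives, among them quantile normalization (adjusted p = 0.103) and median centring (adjusted p = 0.0518). The effect on Ccnd1 was higher at 12 h by 1.12 ± 0.27 (adjusted p = 0.0181), which did not pass without control replicate 1 at 12 h (adjusted p = 0.0560). The effects on Map2k3 (-1.73 ± 0.22, adjusted p = 0.000317) and Plk2 (-1.33 ± 0.23, adjusted p = 0.00252) were lower at 12 h. Those on Tp53rkb (-1.44 ± 0.43, adjusted p = 0.0444) and Xpc (-0.77 ± 0.22, adjusted p = 0.0375) were lower at 12 h too, but did not pass with the replicate block (adjusted p = 0.0891 and 0.0520) and were lost in 16 and 13 of 21 alternatives. The effect on Sfn was lower at 12 h (-2.24 ± 0.52, adjusted p = 0.0149) and that on Apaf1 was higher (1.05 ± 0.23, adjusted p = 0.0104), and both passed in all 21 alternatives. The times differ in their sets of arrays as well, and the part of the sets in these differences was not tested beyond the alternatives named.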

How the results depend on the processing

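For the members, 413 of 464 values under an alternative kept their direction and side of the threshold, 18 were no longer past it, 22 newly passed and 11 changed sign. For the list genes named by the rule or for a difference between times, 932 of 1025 kept both and 93 were no longer past it. The calls of Gadd45b and Gadd45g at both times and of Cdkn1c at 12 h held in every alternative run. Blocked on the array set, and with the arrays of the time alone, 7 members were called at 4 h instead of 4, and the block called 8063 probe sets at 4 h instead of 5186. With the replicate block, the probe sets called were 5220 at 4 h, 6850 at 12 h and 2044 for the difference, and it added Cdkn2b at 4 h and the Gadd45a difference to the members called. For the difference between times, 1 member was called with quantile normalization or the replicate block and 2 when blocked on the array set or with 1 set at each time, against 0. Leaving out 1 array at a time gave 0 to 2 members and 1419 (without control replicate 2 at 4 h; 1423 without control replicate 1 at 12 h) to 2955 probe sets, against 2153, with 4092 under the set block and 3539 with 1 set at each time. Without 1 array, 3864 to 6878 probe sets were called at 4 h. Cdkn1a at 4 h ran from -0.36 to 0.58 and Ccng1 at 12 h from -0.17 to 0.22 with 1 array left out, and Ccng1 at 12 h was -0.16 with quantile normalization. Gadd45a at 12 h ran from -0.35 without EGF replicate 3 to 0.47, and was -0.35 under the set block and with 1 set at each time. Mdm2 at 4 h was -0.093 by its second probe set. Median centring moved the median log2 fold change of all probe sets at 4 h to -0.04, against -0.15, and the calls there to 2477 higher and 2189 lower, against 2118 and 3068, and at 12 h to 3436 and 3091, against 2848 and 3882. The members called at either time stayed the same under it. Signals near the offset, as for Gadd45g and Cdkn2b at 12 h, limit the fold changes there, and other causes were not tested.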
